A study of Capra hircus with 2 samples.

Results

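This report describes 9 genes of the Wnt pathway in goat skin: the ligand WNT5A, the R-spondins RSPO1 and RSPO3, the secreted antagonists WIF1, SFRP1, SFRP5 and DKK1, and the intracellular genes LEF1 and CTNNB1. They were chosen by symbol, and all 9 were found among the 27137 features of the deposited table. Skin cells of Liaoning cashmere goats, a breed kept for its fine undercoat, were profiled by droplet single-cell RNA sequencing of transcript 3′ ends. The coarse library, CT-LCG, and the fine library, FT-LCG, each came from scapular skin of 1 healthy goat, taken while the secondary follicles, which make the cashmere, were in active growth and dissociated into single cells. The question of the study is how the cells of coarse and fine cashmere skin differ. Each fibre type has 1 library, so no replicate check of a library difference exists, and fibre type, goat and library cannot be told apart.

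Wnt ligands are secreted proteins that bind Frizzled receptors on a neighbouring or the same cell. In the canonical branch, a bound receptor spares β-catenin from breakdown, and β-catenin then enters the nucleus and acts with LEF and TCF factors on target genes. R-spondins strengthen the signal by keeping Frizzled receptors on the cell surface, whereas WIF1 and the SFRP proteins bind the ligands and DKK1 blocks the LRP co-receptors. The hair follicle depends on this pathway in both the epithelial matrix that builds the fibre and the dermal papilla, the mesenchymal cell group at its base.

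The deposited list of kept cells held 3443 cells of CT-LCG with 27890472 UMIs (unique molecular identifiers, each counting 1 captured transcript) and 9608 cells of FT-LCG with 85400323 UMIs. Cells of CT-LCG had a median depth of 2314 UMIs and those of FT-LCG of 6121.5, and 11 barcodes were kept in both libraries. The cells were grouped into 13 clusters without the use of any Wnt gene or cell type marker. Of these, 9 were epithelial (3135 CT-LCG and 9155 FT-LCG cells), 1 was mesenchymal (102 and 128 cells), and 3 held macrophage or dendritic-like, endothelial-like and mast cell-like cells (206 and 325 cells). The mesenchymal cluster was led by COL1A1, with all 8 fibroblast markers detected. It was not free of epithelial transcripts: KRT10, a keratin of the suprabasal epidermis, had a UMI in all 56 CT-LCG mesenchymal cells with RSPO3 and in all 46 without. The source of this signal, free RNA or mixed droplets, was not tested, and shares of cells with a UMI are given below beside those of epithelial cells where these bear on them.

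The level of a gene in a group of cells is its share of all their UMIs, expressed per 10000, and ranges in brackets are exact 95% Poisson intervals. Shares of cells carry exact Clopper-Pearson intervals at the same level. These intervals cover counting error only. Levels of different genes were not compared with each other, since capture at the 3′ end differs between genes.

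RSPO3, WIF1, WNT5A and LEF1 had levels at least 2-fold higher in mesenchymal than in epithelial cells in both libraries, and the other 5 genes did not. These were 4 of the 9 genes, and among all 14041 genes with enough UMIs 17.0% met the same rule. None of the 9 was at least 2-fold higher in epithelial cells in both libraries, against 4.59% of all genes. For most members depth fixed this outcome. In CT-LCG mesenchymal cells 1 UMI was already a level of 0.0205, and 0 UMIs were set to a floor of 0.0615. The CT-LCG epithelial levels of WNT5A, LEF1, SFRP5, DKK1, WIF1 and RSPO3, at most 0.0329, could not be 2-fold higher at any mesenchymal count. The median log2 ratio of mesenchymal over epithelial level was 4.64 for the 7 members with a ratio in CT-LCG and 2.81 for the 9 members in FT-LCG, where all genes had medians of 0.46 and 0.36.

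**Figure D1:**
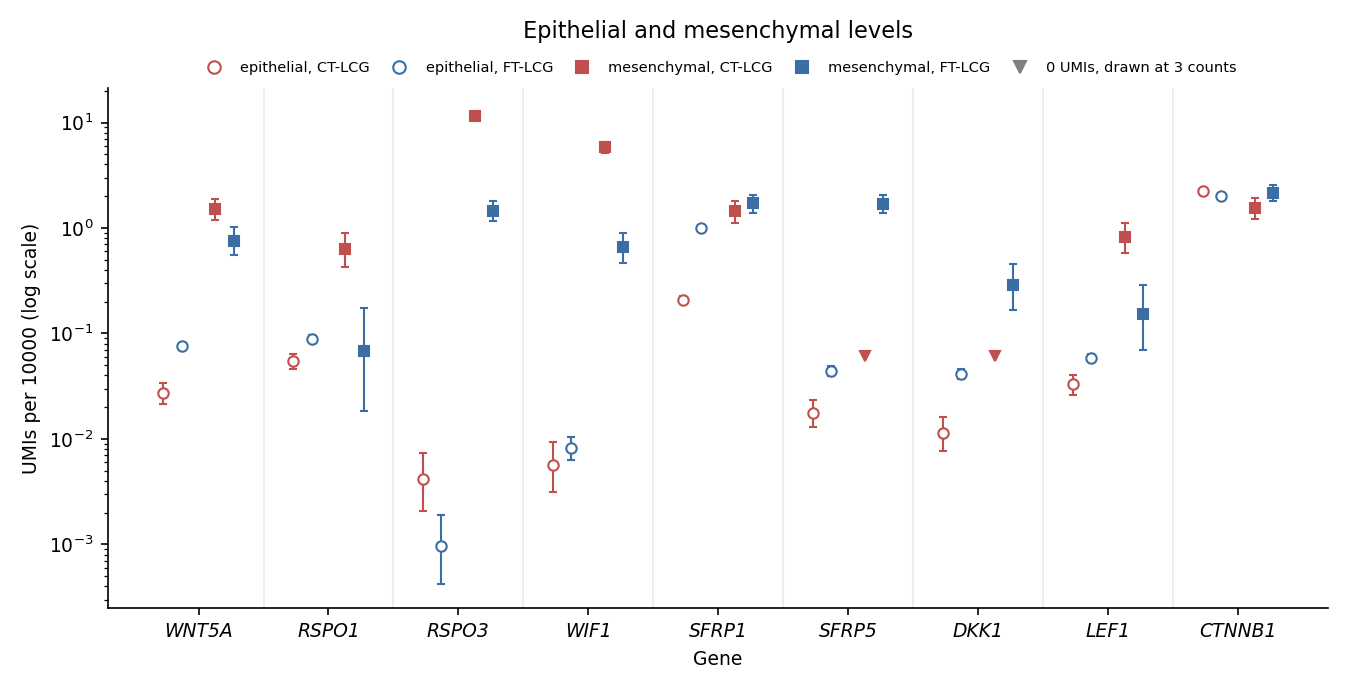
Level of each of the 9 genes in epithelial cells (open circles) and mesenchymal cells (filled squares) of CT-LCG and FT-LCG, as UMIs per 10000 on a log axis, with exact 95% Poisson intervals. Triangles mark the level that 3 UMIs would give where none was counted. RSPO3 stands at 11.6 and 1.45 in mesenchymal cells and at 0.00415 and 0.000973 in epithelial cells, while the 4 CTNNB1 points lie between 1.54 and 2.26.

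WNT5A, a ligand known mainly for signalling that does not use β-catenin, had its highest level in the mesenchymal cluster of both libraries, although in FT-LCG the interval overlapped that of macrophage or dendritic-like cells. In CT-LCG its level was 1.52 UMIs per 10000 (1.19 to 1.90) in mesenchymal cells and 0.0272 in epithelial cells. In FT-LCG the corresponding levels were 0.761 (0.555 to 1.02) and 0.0754. The log2 ratio was 5.80 (5.31 to 6.29) in CT-LCG and 3.33 (2.86 to 3.77) in FT-LCG, so both libraries had the same direction with intervals that did not overlap. The mesenchymal cells held 74 of the 165 WNT5A UMIs of CT-LCG and 45 of the 760 of FT-LCG, fewer than the rest of the cells in either library.

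Outside the mesenchyme, WNT5A was next highest, by the mean of the libraries, in mast cell-like cells, at 0.497 (0.284 to 0.807) in CT-LCG and 0.393 (0.107 to 1.01) in FT-LCG. Macrophage or dendritic-like cells had unequal values and were above the mast cell-like ones in FT-LCG, with 3 UMIs in 2 of 86 CT-LCG cells and 85 UMIs in 32 of 137 FT-LCG cells (0.538, 0.430 to 0.666). In this cluster the basal epidermal markers summed to levels of 16.2 in CT-LCG and 305 in FT-LCG. Its macrophage or dendritic markers summed to 47.1 and 27.6, and its T cell markers to 15.3 and 3.87. Whether it held the same cells in both libraries was not tested. Within the epithelium the FT-LCG cells of the hair cortex and matrix type (cortex/matrix-like), a cluster that also led in cycling genes, held the most WNT5A UMIs of any cluster. There WNT5A reached 0.187 (0.162 to 0.214), against 0.0960 (0.0559 to 0.154) in CT-LCG. The suprabasal-like cluster led by KRT4 and SPINK7 was low in both, at 0.00679 and 0.00644.

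RSPO3, an R-spondin described in the dermal papilla and in vessels, was almost wholly mesenchymal. In CT-LCG, 567 of 585 UMIs lay in the 102 mesenchymal cells, a level of 11.6 (10.7 to 12.6), while 3135 epithelial cells held 11 UMIs (0.00415). In FT-LCG, 86 of 94 UMIs lay in 128 mesenchymal cells, a level of 1.45 (1.16 to 1.80), and 9155 epithelial cells held 8 UMIs (0.000973). The log2 ratio of mesenchymal over epithelial level was 11.45 (10.60 to 12.46) and 10.55 (9.50 to 11.80), and these intervals overlapped.

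Epithelial RSPO3 was rare. A UMI was found in 10 of 3135 CT-LCG and 7 of 9155 FT-LCG epithelial cells, of which 9 and 6 held a single UMI, and none of these cells had a WIF1 UMI. Of the 11 epithelial UMIs of CT-LCG, 8 were in inner root sheath-like cells, at 0.0580 (0.0251 to 0.114). Barcodes of CT-LCG that were not kept, which hold at most 500 genes each, had an RSPO3 level of 0.0555 (0.0277 to 0.0993), the same within counting error. The inner root sheath-like cluster was the shallowest in both libraries, at medians of 1085 and 1145 UMIs. ELOVL3, TCHH, KRT27 and KRT25 were among its leading genes, and its suprabasal markers summed to levels of 517 and 455. Whether it is 1 cell type was not tested. Among the other cell groups, 7 UMIs in a single macrophage or dendritic-like cell of CT-LCG were the only ones found.

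RSPO1, the other R-spondin, had a different pattern, with epithelial UMIs in both libraries. It was highest within the epithelium in the granular layer-like cluster led by LOR (loricrin), where 60 UMIs in 28 of 119 CT-LCG cells gave 0.196 (0.150 to 0.253) and 310 UMIs in 130 of 339 FT-LCG cells gave 0.488 (0.435 to 0.545). The cluster led by HSPA6 and GADD45B, genes of the stress response, came next by the mean of the libraries, with 0.101 (0.0749 to 0.133) and 0.187 (0.166 to 0.211). These 2 clusters together held most of the 742 RSPO1 UMIs of FT-LCG. Mast cell-like cells of CT-LCG also had RSPO1, with 13 UMIs in 9 of 66 cells (0.404, 0.215 to 0.690), and those of FT-LCG had 1 UMI.

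The mesenchymal level of RSPO1 was above the epithelial level in CT-LCG only. It was 0.635 (0.432 to 0.901) from 31 UMIs against 0.0548 in epithelial cells, a log2 ratio of 3.54 (2.93 to 4.10). FT-LCG mesenchymal cells held 4 UMIs, a level of 0.0676 (0.0184 to 0.173) against 0.0896, and the log2 ratio of -0.41 had an interval from -2.29 to 0.96. In CT-LCG, RSPO1 and RSPO3 were thus both higher in mesenchymal than in epithelial cells.

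WIF1, which binds and sequesters Wnt ligands, was highest in the mesenchymal cluster of both libraries, as RSPO3 was. Its mesenchymal level was 5.84 (5.18 to 6.56) in CT-LCG and 0.659 (0.469 to 0.901) in FT-LCG, and its epithelial levels were 0.00566 and 0.00815. The log2 ratios were 10.01 (9.26 to 10.87) and 6.34 (5.73 to 6.93). Most of the epithelial WIF1 of FT-LCG was in 1 cluster, where 39 of the 67 epithelial UMIs were in 28 of 670 cells of the outer root sheath and bulge type (ORS/bulge-like), at 0.0775 (0.0551 to 0.106). CT-LCG had 3 UMIs in the 150 cells of that cluster, 0.0356 (0.00733 to 0.104), so a difference between libraries there was not detectable at this depth.

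SFRP1, a secreted Frizzled-related protein, was chiefly a gene of the ORS/bulge-like cluster, which was led by CXCL14 and KRT19. That cluster held 256 UMIs in 53 of 150 CT-LCG cells, a level of 3.03 (2.67 to 3.43). In FT-LCG it held 4624 UMIs in 529 of 670 cells, a level of 9.19 (8.93 to 9.46). The mesenchymal cluster was second in the mean order of the libraries, at 1.43 (1.12 to 1.81) and 1.71 (1.39 to 2.07), with overlapping intervals. The epithelial level was 0.208 in CT-LCG against 1.00 in FT-LCG, and the log2 ratio of mesenchymal over epithelial cells was 2.78 (2.40 to 3.14) in the first and 0.77 (0.47 to 1.05) in the second.

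SFRP5, a relative of SFRP1, shared the ORS/bulge-like cluster, at 0.403 (0.279 to 0.563) in CT-LCG and 0.447 (0.391 to 0.510) in FT-LCG. When the cells were thinned to 1000 UMIs for the readout, SFRP1 was seen in 20 of 55 FT-LCG cells with SFRP5 and in 304 of 564 cells without it, and in CT-LCG in 1 of 11 and 27 of 115. The FT-LCG share was lower in cells with SFRP5, 36.4% (23.8 to 50.4) against 53.9% (49.7 to 58.1), and these intervals overlapped narrowly. In CT-LCG, with 11 SFRP5 cells, the intervals overlapped widely. Endothelial-like cells of CT-LCG had 8 SFRP5 UMIs in 7 of 54 cells (0.385, 0.166 to 0.759), and those of FT-LCG had 3 in 157 cells. CT-LCG mesenchymal cells had 0 of the 55 SFRP5 UMIs, and FT-LCG mesenchymal cells had 100 of 469, all in 10 cells described below.

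DKK1, which blocks the LRP co-receptors, was carried by few cells, with 30 UMIs in 10 CT-LCG cells and 364 UMIs in 98 FT-LCG cells. In FT-LCG, 266 UMIs lay in 45 of 1075 cells of the cluster led by STAR and SPP1, a level of 0.273 (0.241 to 0.308). The best list of that cluster was the outer root sheath and bulge one, at a mean log2 fold of 0.98, just under the 1 needed for a name. The same cluster of CT-LCG had 0 UMIs in 292 cells, which allows a share of up to 1.03% of cells with a UMI. At the floor of 3 UMIs the level was 9.32-fold lower at full depth, a bound that takes UMIs as independent although they were clumped. At matched depth DKK1 was seen in 12 of 942 FT-LCG cells, 1.27%, and in 0 of 287 CT-LCG cells, where the interval reached 1.28%, so the difference was not detectable there. The single highest FT-LCG cell held 44 DKK1 UMIs among 102084 UMIs, and the top 10 cells held 51.1% of all DKK1 UMIs of that library.

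CT-LCG DKK1 lay mostly in the ORS/bulge-like cluster, which has the same best list. There 6 cells held 21 of its 30 UMIs (0.249, 0.154 to 0.380), where FT-LCG had 9 UMIs (0.0179, 0.00818 to 0.0340). Of the 21, 10 lay in 1 cell that held 52739 UMIs. None of these CT-LCG cells kept a DKK1 UMI after thinning to 1000 UMIs, so this difference too was not detectable at matched depth.

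LEF1, the nuclear partner of β-catenin, had 2 sites. It was highest in mesenchymal cells of CT-LCG, at 0.819 (0.585 to 1.12), against 0.0329 in epithelial cells, a log2 ratio of 4.64 (4.06 to 5.20). In FT-LCG the mesenchymal level was 0.152 (0.0696 to 0.289) from 9 UMIs, against 0.0587, and the log2 ratio was 1.37 (0.24 to 2.31). The epithelial site was the cortex/matrix-like cluster led by KRT35, with 40 UMIs in 27 of 251 CT-LCG cells (0.226, 0.161 to 0.308) and 413 UMIs in 171 of 782 FT-LCG cells (0.372, 0.337 to 0.410). That cluster held 413 of the 499 LEF1 UMIs of FT-LCG. A finer clustering, with the resolution raised by 0.3, put a cluster of the outer root sheath type among the mesenchymal ones and turned the FT-LCG ratio of LEF1 to -0.57.

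CTNNB1, the gene of β-catenin, had UMIs in every cluster of both libraries. Its level ranged from 0.688 (0.276 to 1.42) in FT-LCG mast cell-like cells to 4.93 (4.51 to 5.38) in the CT-LCG cluster led by STAR and SPP1. That cluster was also the highest in FT-LCG, at 2.98 (2.87 to 3.09). The log2 ratio of mesenchymal over epithelial cells was -0.56 (-0.91 to -0.23) in CT-LCG and 0.09 (-0.17 to 0.34) in FT-LCG. It was the member with the smallest ratio in FT-LCG, and in neither library did it reach 2-fold.

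**Figure D2:**
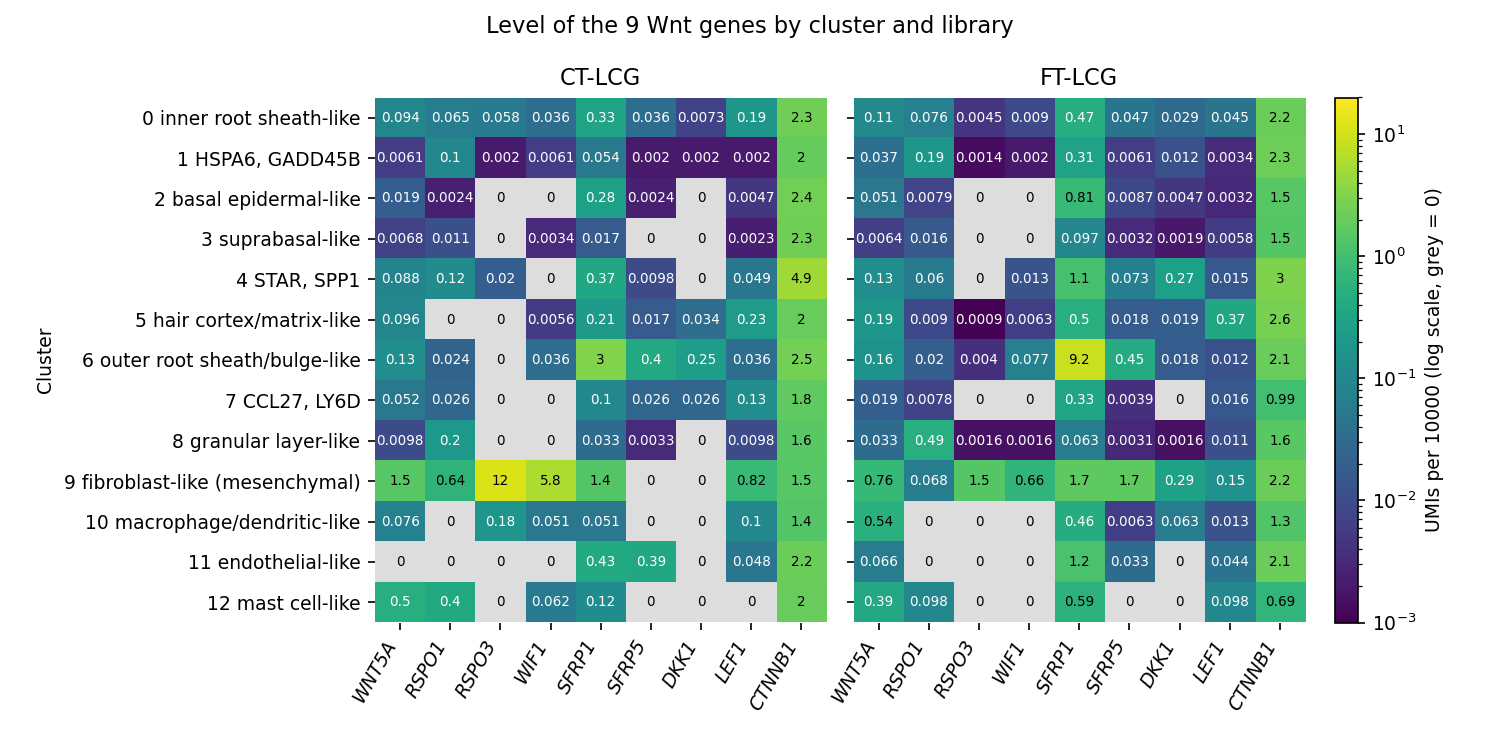
Level of each gene (columns) in each of the 13 clusters (rows), CT-LCG left and FT-LCG right, as UMIs per 10000 on a log colour scale with the value printed in each cell and 0 in grey. RSPO3 and WIF1 are highest in the mesenchymal cluster, whose best list is the fibroblast one and which also holds the dermal papilla-like cells. Among the epithelial clusters SFRP1 is highest in the ORS/bulge-like (3.03 and 9.19), RSPO1 in the granular layer-like (0.196 and 0.488) and LEF1 in the cortex/matrix-like cluster (0.226 and 0.372).

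In the order of clusters the mesenchymal cluster ranked first in both libraries for WNT5A, RSPO3 and WIF1. By the mean of the libraries the mesenchymal cluster ranked first for WNT5A, RSPO1, RSPO3, WIF1, SFRP5, DKK1 and LEF1, second for SFRP1, and outside the first 4 for CTNNB1. For RSPO1 the mesenchymal mean of 0.351 and the granular layer-like mean of 0.342 were close, and the libraries had opposite orders. For SFRP5 and DKK1 the first rank rested on FT-LCG alone, and there largely on a sub-cluster described below whose best list was epithelial. For LEF1 the first rank rested on CT-LCG alone. In FT-LCG the cortex/matrix-like level of LEF1, 0.372 (0.337 to 0.410), was above the mesenchymal 0.152 (0.0696 to 0.289). In DKK1 the mesenchymal FT-LCG level of 0.287 (0.167 to 0.460) overlapped that of the cluster led by STAR and SPP1.

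The mesenchymal cells were divided further, again without the Wnt genes and the markers, into 5 sub-clusters. This division was chosen after the values had been seen. The first sub-cluster, here dermal papilla-like, was led by WIF1, HHIP, PENK, CXCL13, IGFBP3 and RSPO3, with 10 of 16 dermal papilla markers detected. CORIN and SOX2 had no UMI in it in either library and ALPL had 1, so 3 usual papilla markers were absent or nearly so. The others were fibroblast-like cells led by COCH and PI16, pericyte-like cells with RGS5, and melanocyte-like cells with MLANA and PMEL. A further sub-cluster, led by ACTG2, KRT8 and SFRP5, was left unnamed because contractile and basal epidermal genes were both high. Its best list was the basal epidermal one, an epithelial list, with a mean log2 fold of 2.20 and all 7 markers detected. Its cells stayed among the mesenchymal ones in the main counts.

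The libraries differed in the make-up of their mesenchymal cells. The dermal papilla-like sub-cluster held 66 of 102 CT-LCG cells, 64.7% (54.6 to 73.9), and 11 of 128 FT-LCG cells, 8.59% (4.37 to 14.9). The fibroblast-like sub-cluster had 10 and 43 cells, the pericyte-like 9 and 31, the ACTG2-led 5 and 35, and the melanocyte-like 12 and 8. These shares come from a sub-clustering that was not corrected for the library. With that correction, 72 of 102 CT-LCG and 24 of 128 FT-LCG cells were dermal papilla-like, so the FT-LCG share depended on the sub-clustering. Fewer dermal papilla-like cells in the FT-LCG skin and fewer such cells released by dissociation cannot be told apart.

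Member transcripts were concentrated in these sub-clusters. In CT-LCG the dermal papilla-like cells held 565 of 567 RSPO3 UMIs, 279 of 285 WIF1 UMIs, 71 of 74 WNT5A UMIs, all 31 RSPO1 UMIs, 39 of 40 LEF1 UMIs and 65 of 70 SFRP1 UMIs of the mesenchymal cells. They held 51 of 75 CTNNB1 UMIs, 68.0%, which was close to their 64.7% of the cells. In FT-LCG the 11 dermal papilla-like cells held 58 of 86 RSPO3 UMIs and 36 of 39 WIF1 UMIs. WNT5A was more widely spread in that library, with 23 of 45 UMIs in dermal papilla-like and 17 in fibroblast-like cells.

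The ACTG2-led cells of FT-LCG, whose best list was epithelial, carried most of the SFRP5, DKK1 and SFRP1 UMIs counted as mesenchymal in that library. They held all 100 mesenchymal SFRP5 UMIs, in 10 of 35 cells, 15 of 17 DKK1 UMIs in 3 cells, and 53 of 101 SFRP1 UMIs in 18 cells. Their SFRP5 level was 5.11 (4.15 to 6.21), the highest of any group, and their SFRP1 level was 2.71 (2.03 to 3.54). Another 24 RSPO3 UMIs lay in 3 of these cells, 21 of them in 1 cell. Beside these values, the summed level of the 7 basal epidermal markers was 124 in this sub-cluster and 15.7 in FT-LCG dermal papilla-like cells, and that of the 8 pericyte or smooth muscle markers was 146 and 1.70. The part of mixed droplets in the SFRP5 and DKK1 values was not tested.

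**Figure D3:**
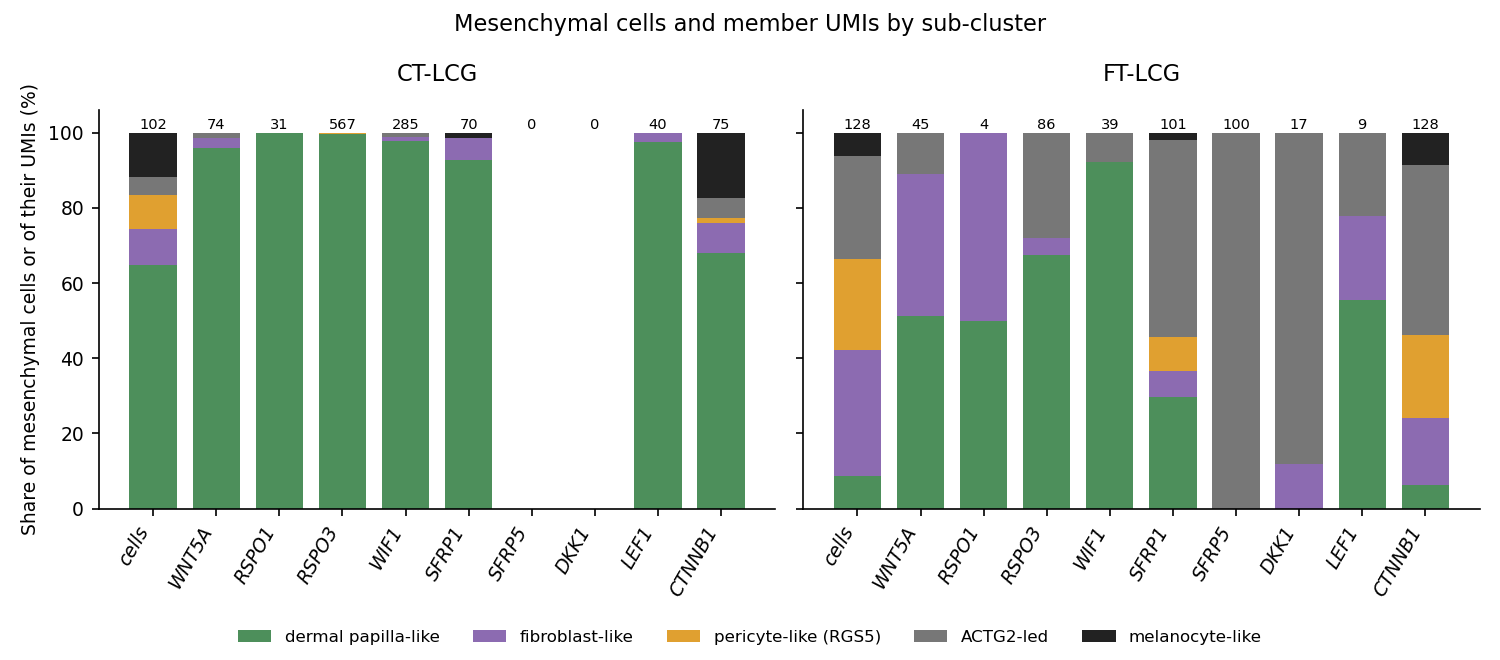
Share of the mesenchymal cells (first bar) and of their UMIs for each gene (other bars) in the 5 mesenchymal sub-clusters, CT-LCG left and FT-LCG right, in percent. The dermal papilla-like part is 64.7% of the cells and 99.6% of the RSPO3 UMIs in CT-LCG, and 8.59% of the cells and 67.4% of the RSPO3 UMIs in FT-LCG, where SFRP5 lies wholly in ACTG2-led cells.

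RSPO3 was then used to mark cells, and the other members were counted in them. Among mesenchymal cells, 56 CT-LCG and 11 FT-LCG cells had an RSPO3 UMI, with a median of 8 and 7 RSPO3 UMIs, and none shared its barcode with a kept cell of the other library. Of these, 54 and 7 were dermal papilla-like. RSPO3 cells were deeper than the other mesenchymal cells, with median depths of 5367.5 against 3347 UMIs in CT-LCG and 5570 against 3688 in FT-LCG. Shares are therefore also given after thinning to 1000 UMIs, which left out 2 of 102 CT-LCG and 16 of 128 FT-LCG cells and defined RSPO3 cells anew from the thinned counts.

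WIF1 had the widest separation. A WIF1 UMI was present in 39 of 56 CT-LCG RSPO3 cells, 69.6% (55.9 to 81.2), and in 3 of 46 other mesenchymal cells, 6.52% (1.37 to 17.9). In FT-LCG the counts were 8 of 11, 72.7% (39.0 to 94.0), and 2 of 117, 1.71% (0.208 to 6.04). Epithelial cells, the background, had a WIF1 UMI in 0.478% and 0.590% of cells at median depths of 2109 and 6417 UMIs. The separation held in both libraries with intervals apart. After thinning, the counts were 19 of 41 against 4 of 59 in CT-LCG and 4 of 7 against 1 of 105 in FT-LCG, or 47.9% against 70.1% before thinning over both libraries.

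Inside the dermal papilla-like sub-cluster of CT-LCG, 38 of 54 cells with RSPO3 and 0 of 12 without it had a WIF1 UMI, and the WIF1 level in those with RSPO3 was 9.06 UMIs per 10000. In FT-LCG the counts were 7 of 7 and 1 of 4, with overlapping intervals, and the WIF1 level was 6.86 with RSPO3 and 6.59 without it. RSPO3, an enhancer, and WIF1, an antagonist of the pathway, were thus detected in the same droplets.

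WNT5A, the ligand, was seen in 30 of 56 RSPO3 cells of CT-LCG, 53.6% (39.7 to 67.0), and in 3 of 46 other mesenchymal cells, 6.52% (1.37 to 17.9). In FT-LCG it was seen in 9 of 11, 81.8% (48.2 to 97.7), and in 14 of 117, 12.0% (6.70 to 19.3). Thinning left 10 of 41 against 2 of 59 and 4 of 7 against 4 of 105. Cells with WNT5A, WIF1 and RSPO3 together numbered 24 in CT-LCG and 7 in FT-LCG.

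RSPO1 accompanied RSPO3 in 18 of 56 CT-LCG cells, 32.1% (20.3 to 46.0), against 3 of 46 others, and in 2 of 11 FT-LCG cells against 0 of 117. After thinning the RSPO1 counts were 6 of 41 against 1 of 59 and 0 of 7 against 1 of 105, with overlapping intervals in both libraries. SFRP1 was present in 20 of 56 against 8 of 46 in CT-LCG and in 7 of 11 against 32 of 117 in FT-LCG, with overlapping intervals in each library. LEF1 was present in 22 of 56 against 7 of 46 and in 6 of 11 against 3 of 117. After thinning LEF1 fell to 5 of 41 against 5 of 59 and 0 of 7 against 2 of 105, so its excess in RSPO3 cells was not detectable at matched depth. Inside the CT-LCG dermal papilla-like sub-cluster, WNT5A was seen in 29 of 54 cells with RSPO3 and 2 of 12 without it. RSPO1 was seen in 18 and 3 of these, SFRP1 in 20 and 5, and LEF1 in 22 and 6. The intervals of each gene overlapped, also in FT-LCG with 7 and 4 such cells. An excess of these 4 genes in RSPO3 cells within the sub-cluster was thus not detectable.

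SFRP5 and DKK1 were too rare for such a comparison. CT-LCG mesenchymal cells had 0 UMIs of either gene, and 10 and 4 of the 128 FT-LCG mesenchymal cells had one. No RSPO3 cell of either library had an SFRP5 UMI, and 1 of the 67 had a DKK1 UMI, which says little about RSPO3 cells. CTNNB1 did not mark RSPO3 cells. It was seen in 25 of 56 RSPO3 cells and 16 of 46 others in CT-LCG, and in 6 of 11 and 64 of 117 in FT-LCG, with overlapping intervals in both. Counting WNT5A, RSPO1, WIF1, SFRP1 and LEF1 beside RSPO3, 24 of 56 CT-LCG cells had at least 3 of these 5 genes and 5 had none, and 7 of 11 FT-LCG cells had at least 3 and 1 had none.

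**Figure D4:**
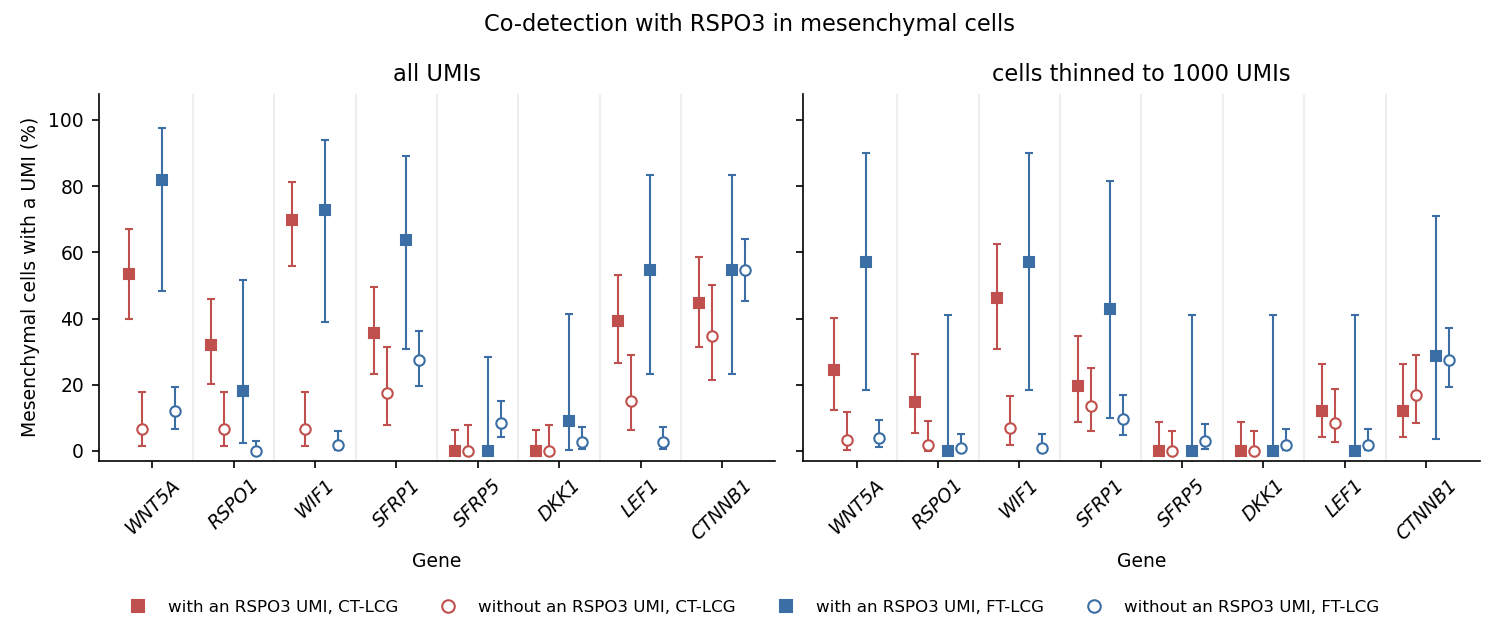
Share of mesenchymal cells with a UMI of each other gene, in cells with an RSPO3 UMI (filled squares) and without one (open circles), by library, with exact 95% binomial intervals, from all UMIs (left) and from cells thinned to 1000 UMIs (right). WIF1 and WNT5A are apart in both libraries at full depth (WIF1 69.6% against 6.52% in CT-LCG and 72.7% against 1.71% in FT-LCG), and CTNNB1 is not.

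Dermal papilla markers were also counted in RSPO3 cells. The same list named the sub-cluster that held 54 of the 56 CT-LCG and 7 of the 11 FT-LCG RSPO3 cells. An excess of these markers is thus no separate evidence, and no share over all genes stands beside the counts. Of the 16 listed, 9 had at least 10 UMIs in the mesenchymal cells of CT-LCG (ALX4 and FGF10 in this library alone) and 9 in those of FT-LCG (FGF7 and HEY1 in this one alone), and the share of cells with a UMI was higher in RSPO3 cells for 9 of 9 in CT-LCG and 8 of 9 in FT-LCG, with intervals apart for 6 and 5 and a higher thinned share for 6 in each. CRABP1, a retinoic acid binding protein, was seen in 38 of 56 against 9 of 46 cells in CT-LCG and in 8 of 11 against 24 of 117 in FT-LCG. SOX18, a transcription factor, was seen in 36 of 56 against 4 of 46 and in 8 of 11 against 6 of 117. HHIP, an inhibitor of hedgehog signalling, was seen in 39 of 56 against 8 of 46 and in 5 of 11 against 2 of 117. FGF7 had the opposite tendency, with 1 of 56 against 5 of 46 and 1 of 11 against 23 of 117, and overlapping intervals. After thinning, CRABP1 was seen in 16 of 41 against 14 of 59 CT-LCG cells and SOX18 in 12 against 7. HHIP was seen in 11 against 9, and the intervals of each gene overlapped. In FT-LCG the thinned intervals were apart for SOX18 and HHIP but not for CRABP1. Inside the CT-LCG dermal papilla-like cells, thinned CRABP1 was seen in 16 of 40 with RSPO3 and 14 of 25 without. There HHIP had 11 and 9 and SOX18 had 12 and 7, again with overlapping intervals.

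Between the libraries, the mesenchymal and epithelial differences had opposite signs for WNT5A, RSPO1, WIF1, LEF1 and CTNNB1, and the epithelial WIF1 ratio of -0.52 (-1.44 to 0.30) was within counting error of 0. In epithelial cells 4 members, WNT5A, SFRP1, SFRP5 and DKK1, were at least 2-fold higher in FT-LCG, where 13.5% of all 16208 genes were. RSPO3 alone was at least 2-fold higher in CT-LCG, where 9.04% were, and this rested on 11 and 8 UMIs. The median log2 ratio of CT-LCG over FT-LCG in epithelial cells was -0.84 over the 9 members and -0.07 over all genes.

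SFRP1 had the widest epithelial difference. Its level was 0.208 (0.191 to 0.227) in CT-LCG and 1.00 (0.980 to 1.02) in FT-LCG, a log2 ratio of -2.26 (-2.39 to -2.14). It was lower in CT-LCG in 9 of 9 epithelial clusters, with the interval below 0 in 8 of them. The log2 ratio ranged from -2.52 in the suprabasal-like cluster to -0.53, and in the ORS/bulge-like cluster it was -1.60 (-1.79 to -1.42). Thinned to 1000 UMIs, SFRP1 was seen in 3.13% of CT-LCG and 9.27% of FT-LCG epithelial cells after 354 and 993 cells were left out, against 8.52% and 25.8% before. The barcodes that were not kept had levels of 0.484 (0.392 to 0.592) and 1.20 (0.998 to 1.44), in the same order.

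WNT5A was at 0.0272 (0.0213 to 0.0342) in CT-LCG and 0.0754 (0.0696 to 0.0816) in FT-LCG epithelial cells, a log2 ratio of -1.47 (-1.84 to -1.12). It was lower in CT-LCG in 7 of the 8 epithelial clusters with enough UMIs, with the interval below 0 in 4. SFRP5 had a log2 ratio of -1.32 (-1.79 to -0.88) over all epithelial cells but -0.15 (-0.72 to 0.37) within the ORS/bulge-like cluster, its main site. RSPO1 had a ratio of -0.71 (-0.98 to -0.45) over all epithelial cells and of -1.31 (-1.74 to -0.91) in granular layer-like cells.

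At full depth LEF1 differed in opposite directions between epithelial clusters. Its log2 ratio was -0.72 (-1.23 to -0.25) in cortex/matrix-like cells and 2.07 (1.18 to 2.99) in inner root sheath-like cells. In the latter, the shallowest cluster, CT-LCG had 0.189 (0.123 to 0.276) and FT-LCG 0.0448 (0.0274 to 0.0692). After thinning, LEF1 was seen in 3.52% (1.53 to 6.83) of CT-LCG and 3.13% (1.99 to 4.66) of FT-LCG cortex/matrix-like cells. In inner root sheath-like cells the shares were 1.35% (0.678 to 2.41) and 0.656% (0.315 to 1.20). The intervals overlapped in both clusters, so neither LEF1 difference was detectable at matched depth. Over all epithelial cells the thinned shares were 0.863% and 0.490%, with overlapping intervals and in the opposite order to the levels. DKK1 also differed in opposite directions at full depth. It had the bound given above in the cluster led by STAR and SPP1. In ORS/bulge-like cells its ratio was 3.80 (2.61 to 5.11). CTNNB1 had the smallest difference over all epithelial cells, 0.16 (0.11 to 0.20), but its clusters ranged from -0.36 to 0.84, with the interval above 0 in 5 of 9 and below 0 in 2. Median depths differed strongly within some clusters, for cortex/matrix-like cells 1926 UMIs against 12172.5 in FT-LCG. Beyond the thinned shares given, their part in these differences was not tested.

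In mesenchymal cells RSPO1, RSPO3, WIF1 and LEF1 were at least 2-fold higher in CT-LCG, where 12.0% of 9180 genes were, and SFRP5 and DKK1 were at least 2-fold higher in FT-LCG, where 12.9% were. The log2 ratio of CT-LCG over FT-LCG was 3.00 (2.67 to 3.34) for RSPO3, 3.15 (2.66 to 3.67) for WIF1, 3.23 (1.73 to 5.19) for RSPO1 and 2.43 (1.36 to 3.66) for LEF1. WNT5A stood at 0.99 (0.44 to 1.56). CT-LCG had no UMI of either, and at the floor of 3 UMIs SFRP5 was 27.5-fold and DKK1 4.68-fold lower there. These bounds take UMIs as independent, but the UMIs were clumped. SFRP5 lay in 10 FT-LCG cells with up to 23 UMIs in 1, and DKK1 in 4 with up to 9 in 1. All 100 SFRP5 and 15 of the 17 DKK1 UMIs of FT-LCG lay in its 35 ACTG2-led cells, of which CT-LCG had 5. In those 5 cells 3 UMIs would give a level of 4.58, against 5.11 for SFRP5 and 0.766 for DKK1 in FT-LCG, so a difference within ACTG2-led cells was not detectable at this depth. With only the sub-clusters whose best list was mesenchymal, 4 members passed 2-fold in place of 6. No share over all genes is given for this setting. SFRP1 had an interval across 0, -0.25 (-0.71 to 0.20), and CTNNB1 a ratio of -0.49 (-0.92 to -0.07). The median over the 9 members was 0.99, and 0.04 over all genes.

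The dermal papilla-like share of these cells was 64.7% against 8.59% in FT-LCG, and within that sub-cluster the ratios of RSPO3, WIF1 and LEF1 were smaller. RSPO3 stood at 16.5 (15.1 to 17.9) in 66 CT-LCG cells and 11.0 (8.32 to 14.2) in 11 FT-LCG cells, a log2 ratio of 0.59 (0.20 to 1.00). WIF1 stood at 8.14 and 6.80, a ratio of 0.26 (-0.25 to 0.80), LEF1 had a ratio of 0.27 (-1.08 to 1.97) and CTNNB1 of -0.02 (-1.11 to 1.26). RSPO1 had 31 UMIs there against 2 for FT-LCG, a ratio of 1.26 (-0.72 to 4.37). WNT5A turned to the other direction, at 2.07 (1.62 to 2.61) in CT-LCG and 4.35 (2.76 to 6.52) in FT-LCG, a ratio of -1.07 (-1.77 to -0.32). SFRP1 was also higher in FT-LCG, at 5.67 (3.83 to 8.09) against 1.90 (1.46 to 2.42), a ratio of -1.58 (-2.23 to -0.91). With a sub-clustering corrected for the library, which gave 72 and 24 such cells, the ratios were 1.39 for RSPO3, 1.06 for WIF1, -0.29 for WNT5A and -1.12 for SFRP1. The size of the RSPO3, WIF1 and WNT5A ratios thus depended on which FT-LCG cells were counted.

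**Figure D5:**
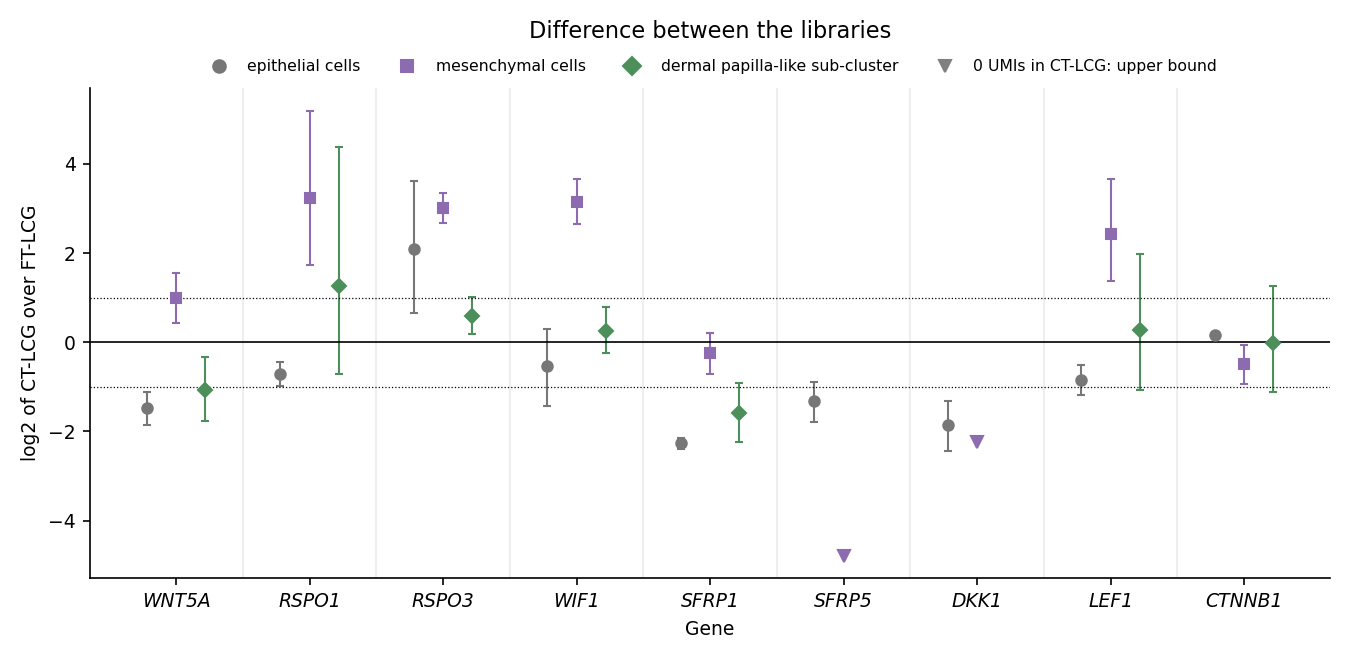
Log2 ratio of CT-LCG over FT-LCG for each gene in epithelial cells (circles), mesenchymal cells (squares) and the dermal papilla-like sub-cluster (diamonds), with exact 95% intervals, for groups with at least 10 UMIs. Dotted lines mark 2-fold and triangles the value at a floor of 3 UMIs where CT-LCG had 0 UMIs. RSPO3 goes from 3.00 in mesenchymal cells to 0.59 in the dermal papilla-like sub-cluster, and WNT5A from 0.99 to -1.07. That sub-cluster has 11 FT-LCG cells.

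The rest of the pathway was read from a list of 79 Wnt genes in the features, the members included. Of these, 77 had a UMI and 64 had enough UMIs in each library. In both libraries 19 of the 64 were at least 2-fold higher in mesenchymal cells, where 17.0% of all genes were, 4 were at least 2-fold higher in epithelial cells, where 4.59% were, and 41 met neither rule. By class, mesenchymal cells were higher for 2 of 11 ligands, 1 of 7 R-spondins and their receptors, 3 of 14 Wnt receptors, 5 of 10 secreted antagonists, 1 of 10 intracellular transducers, 4 of 7 nuclear effectors and 3 of 3 feedback targets, and for none of the 2 genes of ligand secretion. The depth limit given for the members held here too. A gene with a low CT-LCG epithelial level could not be called epithelial at any mesenchymal count. The split of 19 against 4 was thus partly fixed by depth. Some mesenchymal calls rested on few mesenchymal UMIs, such as 2 and 3 for FZD9 and 5 and 8 for TCF7.

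Apart from the 9 genes, those with the largest mesenchymal ratios were SFRP2, FZD4, NKD2, NOTUM and DKK3. NKD2, a feedback inhibitor of the pathway, stood at 3.97 UMIs per 10000 in CT-LCG and 1.03 in FT-LCG mesenchymal cells, against 0.0159 and 0.0326 in epithelial cells. NOTUM, an enzyme that removes the lipid of Wnt ligands, had log2 ratios of 6.97 and 4.88, and the receptor FZD4 of 6.04 and 6.49. FZD4 was not confined to mesenchymal cells, where it stood at 0.348 and 0.338. Endothelial-like cells had 0.771 in CT-LCG and 0.287 in FT-LCG. SFRP2 and DKK3, secreted proteins of the antagonist families, had ratios of 8.46 and 6.53 and of 5.27 and 3.13. The SFRP2 ratios rested on few UMIs, 13 and 4 mesenchymal against 2 and 6 epithelial ones. The epithelial side held the ligands WNT3 and WNT7B, CTNNBIP1, which binds β-catenin, and SOSTDC1, an antagonist of Wnt and BMP signals. WNT3 had 872 and 3574 epithelial UMIs against 0 and 4 mesenchymal ones, and CTNNBIP1 stood at 5.15 and 3.49 in epithelial against 0.860 and 0.710 in mesenchymal cells.

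Likeness between genes was measured by Pearson's r of log2(level + 0.1) over 26 points, the 13 clusters in each library. Points of 1 library share its depth and free RNA, so r is a description. Outside the mesenchymal cluster RSPO3 did not pass a level of 0.178 or WIF1 0.0775, close to the added 0.1. For genes confined to that cluster, r thus rested mainly on its points and would be high for any such gene. Among the members RSPO3 and WIF1 were most alike (r = 0.98), followed by WNT5A and WIF1 (0.74), RSPO3 and LEF1 (0.69), and WNT5A and RSPO3 (0.69). Over all genes with at least 100 UMIs, those most like RSPO3 were PROK2, RCAN2 and PDGFRA (each 0.98), and those most like WIF1 were BMP3, HHIP and PROK2 (each 0.98). AGRN (0.91), LCAT (0.91) and TUSC3 (0.90) were closest to SFRP1, and NTF3 (0.95), ETV4 (0.88) and TAGLN (0.88) to SFRP5. The closest to WNT5A were DFNA5 (0.88), GPSM1 (0.85) and NEK9 (0.85), and to LEF1 STEAP1 (0.87), PENK (0.87) and ZNF618 (0.85). RSPO1 had its highest values with LOC102172749 (0.78), MYD88 (0.75) and RNF225 (0.72), DKK1 with LOC100860781 (0.84), HAS1 (0.84) and NRG1 (0.81), and CTNNB1 with ACVR2A (0.85), BRWD1 (0.85) and FBXL19 (0.83).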

How the data were processed

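The authors deposited raw UMI counts of both libraries in 1 matrix (10x Genomics Chromium 3′ kit, version 3; Cell Ranger 3.0.2 per the file headers), with no normalization, and a table naming the library of each kept cell. Seurat 3.1.1 is named in the submitters' processing notes. For the genome build and the annotation behind the counts, nothing is given in the sources used here. The labels do not say which sample is the coarse type, so libraries were taken from the cell table. Of 17299 barcodes, 13051 were kept, and these were all the barcodes with more than 500 genes, which is the filter the methods state. The paper also names an exclusion by mitochondrial gene coverage, but no barcode with more than 500 genes was left out.

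The cells were clustered from log-normalized counts (scanpy 1.11.5, leidenalg 0.10.2) on 2000 variable genes, leaving out 194 genes (members, wider Wnt list and markers), with 10 principal components, Harmony for the library, 20 neighbours and a resolution of 0.4, the lowest in steps of 0.1 with at least 13 clusters. Clusters were named from marker lists where the mean log2 fold of the list was at least 1 with at least 3 markers detected. Sub-clusters used the same steps without Harmony at a resolution of 1.0. Scrublet called 0 doublets, so no cells were removed in the main analysis.

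Levels are summed UMIs per 10000, with exact Poisson intervals, and ratios have exact conditional binomial intervals (scipy 1.17.1). Genes needed at least 10 UMIs over the cells compared (in each library for compartments), and against 0 UMIs a floor of 3 UMIs per group was used. No test between libraries was run, since each fibre type has 1 library. Named genes were the 9 members, up to 5 genes each way of the wider Wnt list by ratio, the 3 genes most like each member, and the dermal papilla markers. Further markers were named to describe clusters, and FZD9 and TCF7 for their few UMIs. The members and lists were chosen with earlier results of these data known. The scripts were tested on simulated data. Alternatives were the clustering, the depth, free RNA, the average, doublets and the choice of mesenchymal cells.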

Additional observations from a re-analysis of the deposited data

Results flagged for a closer look

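Signal was present in barcodes outside the cells compared, those with at most 500 genes. More than 3 UMIs, the limit that a count of 0 allows, were found for 9 of the 9 genes in the 2659 such barcodes of CT-LCG and for 7 of the 9 in the 1589 of FT-LCG. CTNNB1 had 474 and 270 UMIs there, and SFRP1 96 and 120. LEF1 stood at 0.151 UMIs per 10000 (0.102 to 0.216) in CT-LCG and 0.191 (0.115 to 0.298) in FT-LCG, above the 0.0473 and 0.0584 of the kept cells. RSPO3 had 11 UMIs in 9 CT-LCG barcodes and none in FT-LCG, and DKK1 had 2 UMIs in FT-LCG. Whether these barcodes are shallow cells or empty droplets was not tested. No share over all genes is given beside the counts of 9 and 7 genes.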

How the results depend on the processing

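Of 389 values of single genes under the alternatives, 296 stayed within the counting interval of the main value, 92 lay outside it, and 1 called value changed direction: at a resolution 0.3 higher, the log2 ratio of mesenchymal over epithelial LEF1 in FT-LCG was -0.57, when 201 CT-LCG and 510 FT-LCG cells counted as mesenchymal. Under some alternatives most values lay outside: 22 against 14 that stayed for cells placed by their own marker score. With thinning to 1000 UMIs the numbers were 20 against 13, and with a mean over cells 19 against 15. Thinned to 1000 UMIs, 47.9% of RSPO3 cells (23 of 48) had a WIF1 UMI. With a mean over cells in place of the sum, 3 members passed 2-fold between the libraries in epithelial cells, against 5. The number of members at least 2-fold higher in mesenchymal cells ranged from 3 (cells with at least 1000 genes) to 6 (cells placed by their own marker score), and that of the wider list from 13 to 24. Another seed, no Harmony and leaving out the 172 CT-LCG and 480 FT-LCG cells with the highest doublet scores moved no single value out of its interval. Keeping only clusters scored as fibroblast or dermal papilla gave the same cells, so its 36 values, counted among the 296, could not move. The 296 also hold 36 values of the other seed, which gave the same numbers of cells. With only the sub-clusters whose best list was mesenchymal, an alternative chosen after seeing the data, the SFRP1 ratio between the libraries in mesenchymal cells was 0.30 in place of -0.25, with 4 members past 2-fold in place of 6. The Harmony sub-clustering was also chosen after seeing the data. No share over all genes is given for the counts of members under these alternatives. A change of the members thus cannot be told from a change of all genes. No paired analysis was possible because each fibre type has 1 library. Depth limits all members but CTNNB1 and SFRP1: DKK1, SFRP5 and FT-LCG RSPO3 rest on few cells, the 10 highest cells holding 90.4% of the RSPO3 UMIs of FT-LCG and 100% of the DKK1 UMIs of CT-LCG.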
